A study of Rattus norvegicus with 6 samples.

Results

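The genes described here encode subunits of respiratory complexes II to V as measured in rat left ventricle with and without diabetes. They were taken by name from the array's annotation, as every probe set with a single gene symbol that begins with Sdh followed by a, b, c or d, with Uqcr, Cyc1, Cycs, Cox4 to Cox8, or Atp5. It gave 53 probe sets for 48 genes, of 10411 genes with a single-gene probe set on the array. Each gene was read from the probe set with the highest mean over the 6 arrays. A further 7 probe sets carry a matching symbol together with other gene names, so Cox7a2, Cycs, Uqcrb, Atp5mc1 and Atp5mc2 have no member here, and Cox5a is read from its other probe set. The 48 genes comprise 41 subunits and 7 genes that the naming brought along: the complex II assembly factors Sdhaf1, Sdhaf2, Sdhaf3 and Sdhaf4, the supercomplex factor Cox7a2l, the pseudogene Cox6c-ps1 and Atp5if1, an inhibitor of ATP synthase.

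Total RNA was measured with 1 single-colour Affymetrix array per heart, in 3 normal and 3 diabetic rats. The sources used here name neither the strain, age or sex of the rats nor the means by which diabetes was induced or how long it had lasted. In such whole-tissue RNA, fewer cells of a type and less RNA per cell cannot be told apart.

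The respiratory chain passes electrons from metabolic fuels to oxygen across the inner mitochondrial membrane. Complex II, succinate dehydrogenase, feeds electrons from the citric acid cycle into ubiquinone, complex III passes them from ubiquinol to cytochrome c, and complex IV, cytochrome c oxidase, hands them to oxygen. Complexes III and IV pump protons, and complex V, the ATP synthase, uses their return to make ATP, on which the beating heart depends. Several nuclear-encoded subunits of complex IV come in a heart and muscle form and a form found in most tissues. All genes described here are nuclear, while the catalytic subunits of complex IV are made from mitochondrial DNA and are not members.

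Most transcripts of the respiratory subunits differed little between the groups, and Cox7a1 differed most. Cox7a1, the heart and muscle form of subunit VIIa of complex IV, was 2.45-fold lower in diabetic hearts and was the only member that changed. Intensities were turned into log2(intensity + 16) and tested with limma over all 9519 probe sets whose mean on that scale lay above the 40th percentile of the array. A gene is called changed at an adjusted p under 0.05 (Benjamini-Hochberg, over all tested probe sets). Of the 48 genes, 47 lay above the filter. Of these, 1 fell and none rose, where 2.88% of all tested probe sets changed and 1.38% fell. At an unadjusted p under 0.05 were 5 of the 47 (10.6%), 4 of them lower (8.51%), below the 19.9% and 10.3% of all tested probe sets. Log2 differences (diabetic minus normal) were below 0 for 37 of the 47 (78.7%), with a median of -0.12, against 52.0% and -0.01 over all tested probe sets. With 1 array left out the members' median ran from -0.13 to -0.07, the latter without diabetic 3. After quantile normalization it was -0.16. Of the 47, 37 lay within 0.2 of 0 on the log2 scale, and the standard errors ran from 0.13 to 0.26 with a median of 0.15. After Cox7a1 the lowest were Cox5a (-0.57), Uqcrq (-0.34) and Cyc1 (-0.31), and the highest was Atp5if1 (0.74).

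**Figure D1:**
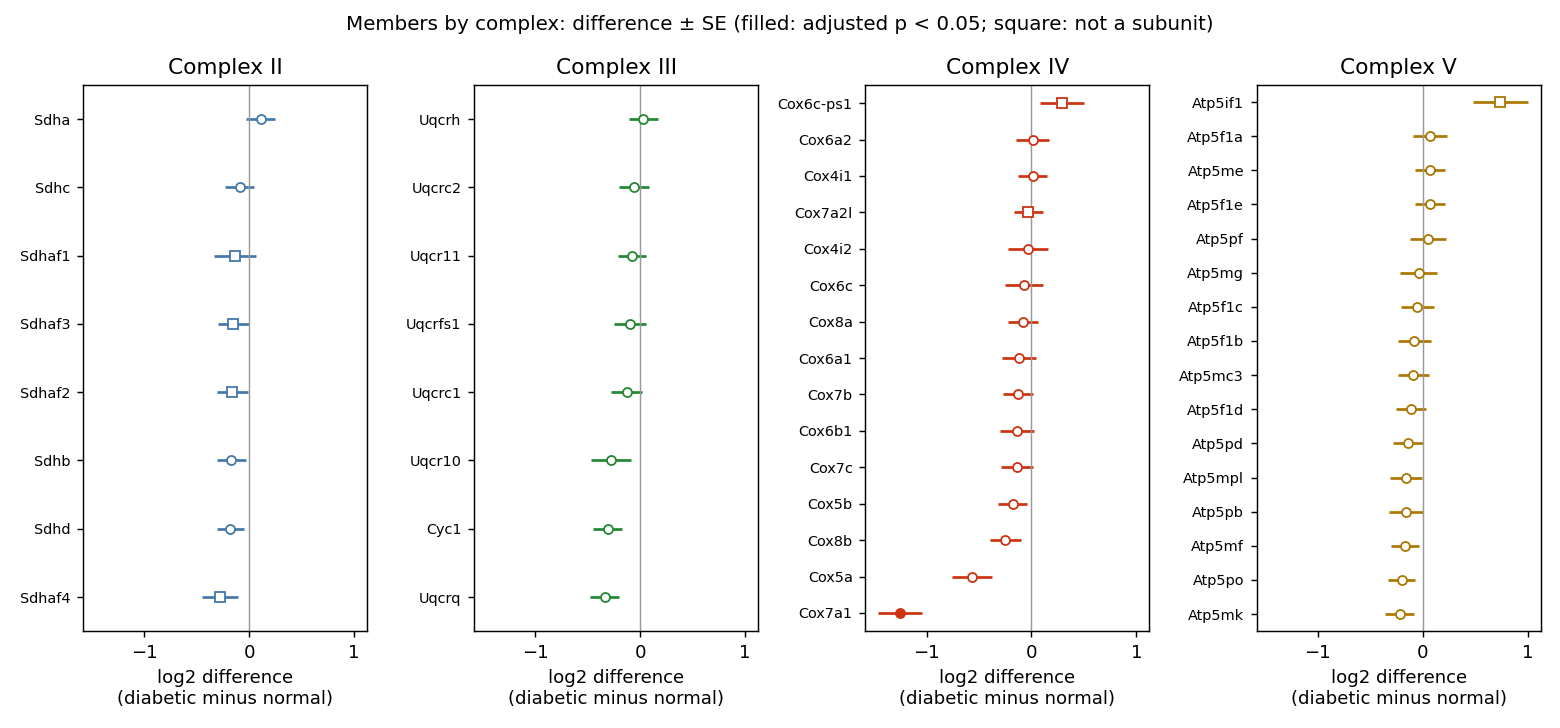
Log2 difference between diabetic and normal hearts (x axis, diabetic minus normal, log2(intensity + 16) scale) for the 47 tested members in 4 panels by complex, with bars of 1 SE from limma on 3 arrays per group. The filled point is Cox7a1 at -1.25, the only member with an adjusted p under 0.05; squares are members that are not subunits, with Atp5if1 at 0.74 as the highest.

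In 10 of the 47 members (21.3%) every diabetic array lay below every normal array, and in 1 every diabetic array lay above. Over all tested probe sets the shares were 13.6% and 12.1%. The 10 were Cox7a1, Cox5a, Cox5b and Cox8b of complex IV, Cyc1 and Uqcrq of complex III, Sdhd of complex II, and Atp5mk, Atp5po and Atp5mf of complex V. The 1 higher member was Atp5if1. After quantile normalization 20 members lay entirely lower, these 10 among them, while the share over all tested probe sets was 13.7%. Scaling to equal medians left 9 lower and 0 higher, since Atp5if1 in diabetic 1 (1853) then lay below normal 3 (1885). The members are bright on this array, so other bright probe sets are given beside them. Of 32 members with a mean intensity above 10000, a limit set after the values were seen, 25 were below 0 with a median of -0.12. Of the 184 other tested probe sets above that limit, 82 were below 0 (44.6%) and their median was 0.05. Lying entirely lower were 8 of these 32 members (25.0%) and 22 of the 184 other bright probe sets, and after quantile normalization 17 (53.1%) and 35 (19.0%).

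**Figure D2:**
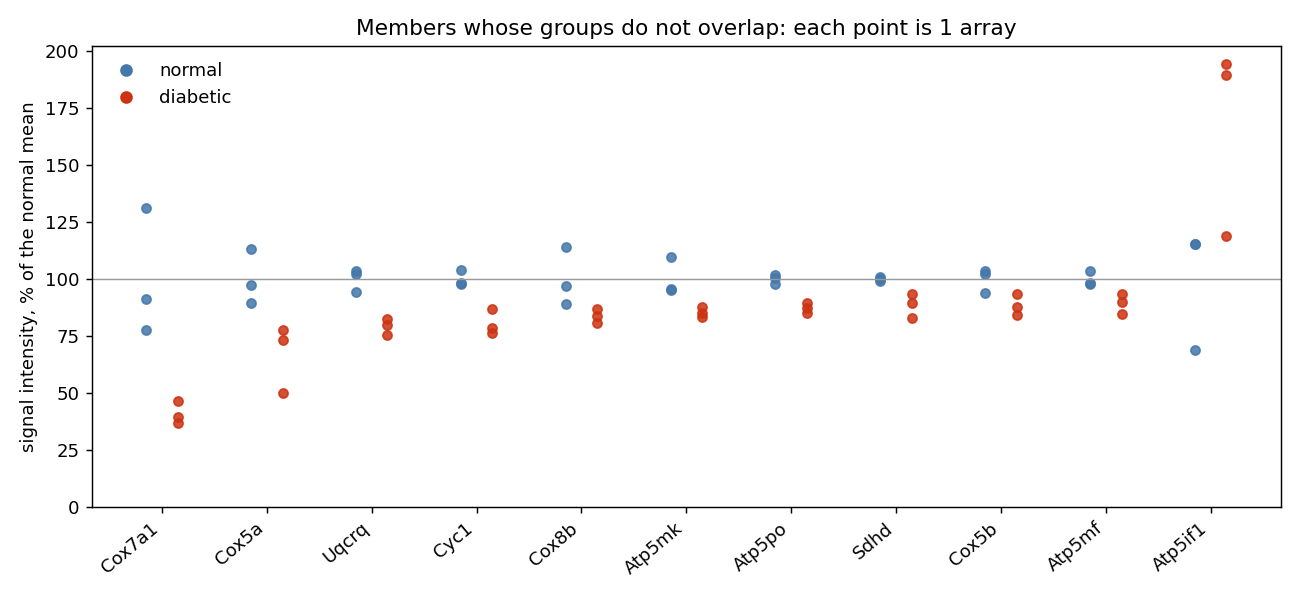
Signal intensity as a percentage of the gene's mean over the normal arrays (y axis, starting at 0) for the 11 members whose groups do not overlap, with 1 point per array, normal in blue and diabetic in red. The diabetic points of Cox7a1 lie farthest below the line at 100, and those of Atp5if1 lie above every normal point.

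Cox7a1 intensities were 1802, 3039.9 and 2119 in normal 1, 2 and 3, and 1075, 852 and 917 in diabetic 1, 2 and 3. The highest diabetic array was below the lowest normal array, and the normal arrays were spread more widely than the diabetic ones. The means were 2320.3 ± 643 and 948 ± 115 (SD, n = 3 per group), a log2 difference of -1.25 ± 0.21 (SE, limma adjusted p = 0.0178). It ranked 105 by p among the 9519 probe sets. With 1 array left out the log2 difference stayed between -1.41 and -1.04, but the adjusted p was 0.0511 without normal 3, 0.0706 without diabetic 2 and 0.0629 without diabetic 3. Without the filter on dim probe sets it was 0.115. The annotation names a single probe set for Cox7a1, so the call rests on it alone. That probe set was far dimmer (normal mean 2320.3) than those of the heart forms Cox6a2 (30755) and Cox8b (25876). How well it reports the Cox7a1 transcript was not tested.

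The other heart forms of complex IV did not pass. Cox6a2, the heart and muscle form of subunit VIa, was at 34030.3, 31379 and 26856 in normal 1, 2 and 3, and at 28206, 35470.1 and 29242 in diabetic 1, 2 and 3. The groups overlapped throughout (log2 0.01 ± 0.16, adjusted p = 0.983), and its sign turned without normal 3 (-0.08) or without diabetic 2 (-0.09). Cox8b, the heart and muscle form of subunit VIII, was at 29527, 25059 and 23042 in normal and at 21664, 22491 and 20875 in diabetic hearts. Its diabetic arrays were all lower, with normal 1 well above the rest, and the log2 difference was -0.25 ± 0.15 (adjusted p = 0.401), or -0.15 without normal 1.

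The forms found in most tissues were close to level. Cox6a1 was at 3613, 3659 and 4440.2 in normal and at 4029, 3689.8 and 3098 in diabetic hearts, and Cox8a at 9024, 9045 and 8742 against 9323, 8177 and 7934. Both pairs of groups overlapped, with log2 differences of -0.12 ± 0.16 (adjusted p = 0.751) and -0.08 ± 0.14 (adjusted p = 0.814). To set a heart form against its partner, the difference between their log2 intensities was taken within each array and compared between groups. This gives the change of the ratio, not which form is more abundant. Over 3 pairs, an exact two-sided permutation test with 3 against 3 arrays cannot go below p = 0.1.

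Cox6a2 minus Cox6a1 was 3.23, 3.09 and 2.59 in normal arrays 1 to 3 and 2.80, 3.26 and 3.23 in diabetic arrays 1 to 3. The change was 0.13 (exact permutation p = 0.5, adjusted over the pairs 0.75), and it was -0.06 without normal 3. Cox8b minus Cox8a was 1.71, 1.47 and 1.40 in normal arrays and 1.22, 1.46 and 1.39 in diabetic arrays, a change of -0.17 (exact permutation p = 0.2, adjusted 0.6), which was -0.08 without normal 1 and -0.10 without diabetic 1. In neither pair did the groups separate. Cox7a1 could not be set against Cox7a2, since the probe set for the latter carries the names of more than 1 gene.

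Subunit IV also has an alternative form. Cox4i1 is the form of most tissues and Cox4i2 is known for its induction at low oxygen. Cox4i1 was at 24156, 25401 and 22152 in normal and at 22219.9, 26485 and 23805 in diabetic hearts (log2 0.01 ± 0.14, adjusted p = 0.973, and -0.02 after quantile normalization). Cox4i2 was at 217, 271 and 254 against 320.5, 208 and 210.4 (log2 -0.03 ± 0.19, adjusted p = 0.957), with diabetic 1 as the highest array and diabetic 2 and 3 as the lowest. Cox4i2 minus Cox4i1 changed by -0.04 (exact permutation p = 0.9, adjusted 0.9) and ran from -0.29 without diabetic 1 to 0.13 without diabetic 2.

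**Figure D3:**
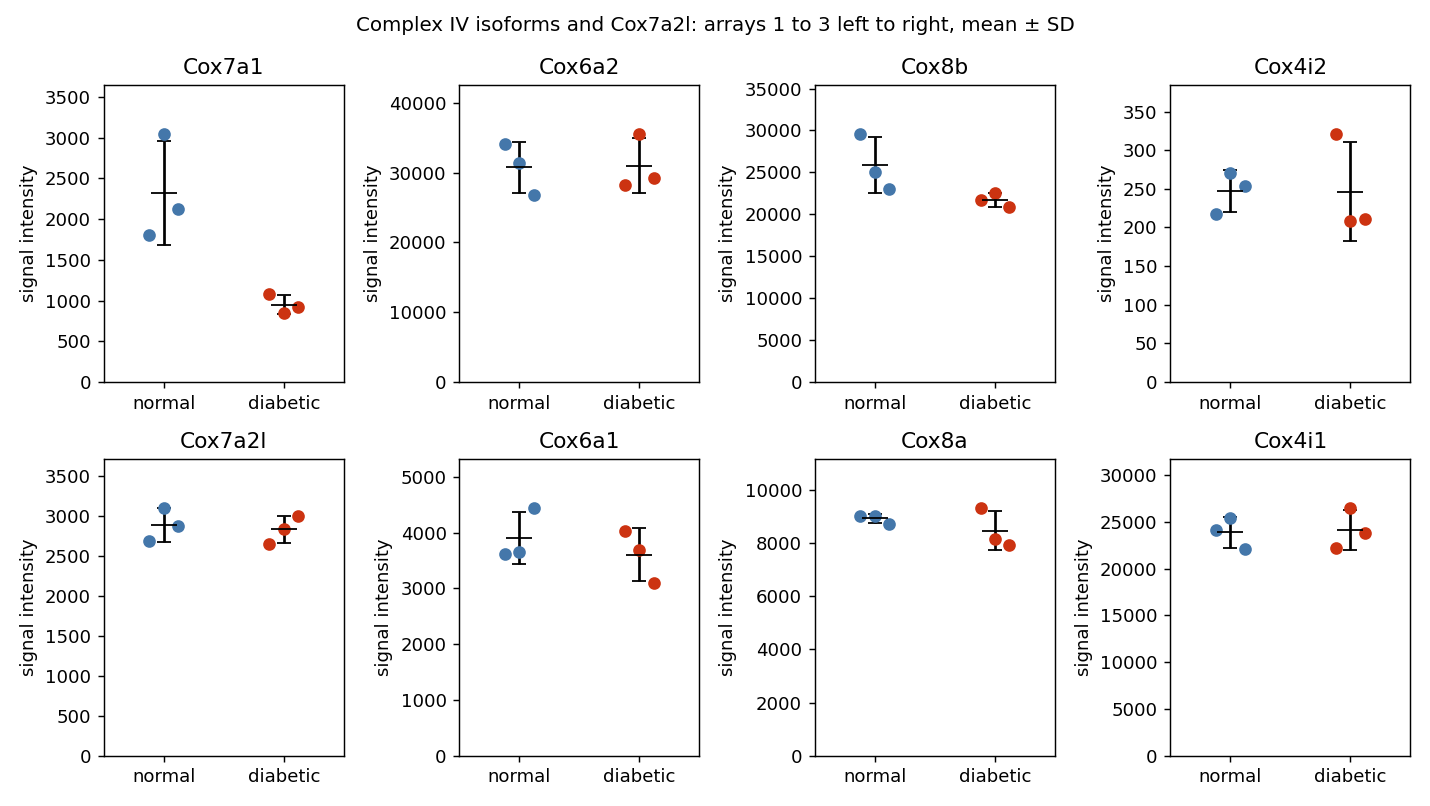
Signal intensity (y axis, each panel from 0 with its own scale) of the heart forms Cox7a1, Cox6a2 and Cox8b, the low-oxygen form Cox4i2, the supercomplex factor Cox7a2l, and the forms Cox6a1, Cox8a and Cox4i1 of most tissues. Points are arrays 1 to 3 from left to right and bars are the mean ± SD (n = 3). Cox7a1 (2320.3 against 948) is the panel with a change past the threshold.

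The sequences upstream of the 3 heart forms are shown because only 1 of these genes changed. Each is the 250 bases before the annotated RefSeq start on assembly GRCr8, written 5′ to 3′ along the gene, with E-boxes (CANNTG, a motif that reads the same on both strands, bound by myogenic and other basic helix-loop-helix factors) in capitals. The windows are chr1:94568966-94569215 on the plus strand for Cox7a1, chr1:192219717-192219966 on the minus strand for Cox6a2, and chr1:205408274-205408523 on the minus strand for Cox8b.
Cox7a1: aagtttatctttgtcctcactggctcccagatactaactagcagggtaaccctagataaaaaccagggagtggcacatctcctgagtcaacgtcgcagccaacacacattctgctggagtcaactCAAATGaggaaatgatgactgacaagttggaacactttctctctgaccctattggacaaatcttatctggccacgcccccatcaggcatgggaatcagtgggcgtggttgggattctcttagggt
Cox6a2: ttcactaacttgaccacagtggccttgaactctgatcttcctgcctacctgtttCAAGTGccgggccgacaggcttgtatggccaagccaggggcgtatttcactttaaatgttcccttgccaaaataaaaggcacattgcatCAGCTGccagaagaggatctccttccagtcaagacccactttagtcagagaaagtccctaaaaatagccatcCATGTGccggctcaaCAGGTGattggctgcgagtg
Cox8b: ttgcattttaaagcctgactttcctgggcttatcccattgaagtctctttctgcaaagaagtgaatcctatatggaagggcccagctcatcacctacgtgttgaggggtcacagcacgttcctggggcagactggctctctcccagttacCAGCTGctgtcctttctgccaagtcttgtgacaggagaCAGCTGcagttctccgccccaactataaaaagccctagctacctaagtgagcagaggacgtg
The Cox7a1 window held 1 E-box, the Cox6a2 window 4 and the Cox8b window 2. An E-box is common: 65.5% of all 33469 upstream windows of this length held at least 1. RefSeq windows were matched for 41 of the 48 members. Of these, 24 (58.5%) held an E-box. The ETS core CCGGAAG on either strand, the kind of site read by the nuclear respiratory factor GABP, was in 15 of the 41 (36.6%) against 7.27% of all windows. The 3 heart forms held no such ETS core in this window. The 33469 windows were not limited to genes measured on the array or detected in heart, so they are an unlike set beside the members. The windows describe sequence and say nothing of binding, and no test was made on them.

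Cox7a2l, a relative of the Cox7a subunits that helps to join complexes III and IV into supercomplexes, was at 2687, 3102 and 2884 in normal and at 2659, 2847 and 3003 in diabetic hearts (log2 -0.03 ± 0.14, adjusted p = 0.943). The groups overlapped fully. The 6 other complex IV subunits above the filter, Cox5a, Cox5b, Cox6b1, Cox6c, Cox7b and Cox7c, all had log2 differences below 0, from -0.57 to -0.07, and none passed. Cox5a was the lowest of them, at 390.5, 454 and 358 against 200.5, 294 and 311. All its diabetic arrays were below all normal ones, with diabetic 1 the lowest (log2 -0.57 ± 0.19, adjusted p = 0.147). The Cox5a probe set was far dimmer (normal mean 401) than those of the rest, whose normal means ran from 17872 to 21955. How well it reports the Cox5a transcript was not tested. Cox5b, the zinc-binding subunit on the matrix side, was at 21159.7, 20875 and 19152 against 17212, 19089 and 17884 (log2 -0.18 ± 0.14, adjusted p = 0.529). Cox6b2, a testis form, lay below the filter, at 3.10 to 34.7 over the 6 arrays, and was not tested. The pseudogene Cox6c-ps1 was at 165, 104 and 106 against 121, 184 and 158 (adjusted p = 0.509), and its signal cannot be told from that of close copies.

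Over the 13 tested complex IV subunits, 11 had a log2 difference below 0 and the median was -0.13. Without diabetic 3 that median was -0.06.

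In complex III, all 8 subunits were tested with limma and none passed, while 2 had an unadjusted p under 0.05 (19.9% of all tested probe sets did). Log2 differences were below 0 for 7 of them, with a median of -0.12, or -0.08 without normal 1. Uqcrq, a small subunit near the ubiquinone site, had the largest difference, at 16095, 15861 and 14645 in normal and 12778, 12367 and 11727 in diabetic hearts. Each diabetic array was below each normal array (log2 -0.34 ± 0.14, adjusted p = 0.209). Cyc1, cytochrome c1, which passes electrons on to cytochrome c, showed the same order, at 14934, 14112 and 14058 against 10946, 12500.4 and 11267 (log2 -0.31 ± 0.14, adjusted p = 0.249). Uqcr10, another small subunit, was at 19464, 18276 and 15605 against 11356, 16618 and 16531. Here diabetic 1 stood far below the other arrays, and the groups overlapped through normal 3 (log2 -0.28 ± 0.19, adjusted p = 0.463).

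The other complex III subunits were near level. Uqcrfs1, the Rieske iron-sulfur protein, was at 19726, 18729 and 17746 against 19396, 17876 and 15237 (log2 -0.10 ± 0.15, adjusted p = 0.760). The core proteins Uqcrc1 and Uqcrc2 had log2 differences of -0.13 and -0.06, and Uqcr11 one of -0.08. Uqcrh, the acidic hinge protein that helps cytochrome c to dock, was at 14148, 13820.4 and 14058 against 12951, 14683 and 15306. Its normal arrays lay within the range of the diabetic ones (log2 0.03 ± 0.14, adjusted p = 0.939, and -0.05 after quantile normalization).

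In complex II, none of 4 subunits passed in limma (median log2 -0.13), and 0 had an unadjusted p under 0.05. Sdha, the flavoprotein that oxidises succinate, was at 12477, 12613 and 11738 in normal and at 12438, 13659 and 13543 in diabetic hearts. Diabetic 2 and 3 were above all normal arrays and diabetic 1 was not (log2 0.11 ± 0.14, adjusted p = 0.722, and -0.02 after quantile normalization). Sdhb, the iron-sulfur subunit, was at 20141, 20256 and 17671 against 16287, 17902 and 17349 (log2 -0.17 ± 0.14, adjusted p = 0.553). Of the membrane anchors, Sdhd was lower in every diabetic array at both of its probe sets. The brighter held 12352, 12501 and 12606 against 10372, 11650.1 and 11187 (log2 -0.18 ± 0.13, adjusted p = 0.521), and the other had a log2 difference of -0.17. Sdhc had one of -0.09. The assembly factors Sdhaf1, Sdhaf2, Sdhaf3 and Sdhaf4 had log2 differences of -0.13, -0.16, -0.15 and -0.28, with overlapping groups in each.

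In complex V, 15 subunits were tested with limma and none passed, with 0 at an unadjusted p under 0.05. Log2 differences were below 0 for 11 and ran from -0.22 to 0.07, with a median of -0.09. That median was -0.05 without normal 1 and -0.15 without normal 3. The 5 subunits of the catalytic F1 head had a median of -0.05, and their groups overlapped in every case. Atp5f1b, the catalytic beta subunit, was at 33419, 31775 and 28653 in normal and at 32151, 31584 and 25200.0 in diabetic hearts, with diabetic 3 the lowest array (log2 -0.08 ± 0.16, adjusted p = 0.828). Without diabetic 3 it was 0.03. Atp5f1e, the epsilon subunit, was at 23675, 23250.1 and 22014 against 22857, 25906 and 23746 (log2 0.07 ± 0.14, adjusted p = 0.831). Atp5f1a was at 0.07, Atp5f1c at -0.05 and Atp5f1d at -0.11 on the log2 scale.

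The 4 peripheral stalk subunits, which hold the head still against the rotor, had a median of -0.15. Among them Atp5po, the subunit that confers oligomycin sensitivity, was at 21609, 21879 and 21091 against 18349, 19258 and 18789. Both groups were tight and did not overlap (log2 -0.20 ± 0.13, adjusted p = 0.455). Atp5pf had a log2 difference of 0.05, which was -0.06 after quantile normalization. Of the 6 membrane subunits (median -0.12), Atp5mk, a small subunit linked to ATP synthase dimers, had the largest difference in the complex, at 24120.0, 21027 and 20924 against 19366, 18305 and 18748. All its diabetic arrays were lower (log2 -0.22 ± 0.14, adjusted p = 0.413). Atp5mf was at 15601, 16423 and 15515 against 13389, 14783 and 14231 (log2 -0.17 ± 0.13, adjusted p = 0.549). Atp5mc3, of the proton-carrying c ring, had a log2 difference of -0.09 and Atp5me one of 0.07.

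Atp5if1, which blocks ATP synthase from running backwards and breaking down ATP, had the largest positive difference of the members. It was at 1104, 1852 and 1852 in normal and at 1903, 3035 and 3116 in diabetic hearts. Diabetic 1 was only just above normal 2 and 3, while diabetic 2 and 3 were well clear of them. The log2 difference of 0.74 ± 0.26 did not pass (limma adjusted p = 0.158, unadjusted p = 0.0186). Its 2 other probe sets lay below the filter, with overlapping groups and differences of 0.46 and 0.56.

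**Figure D4:**
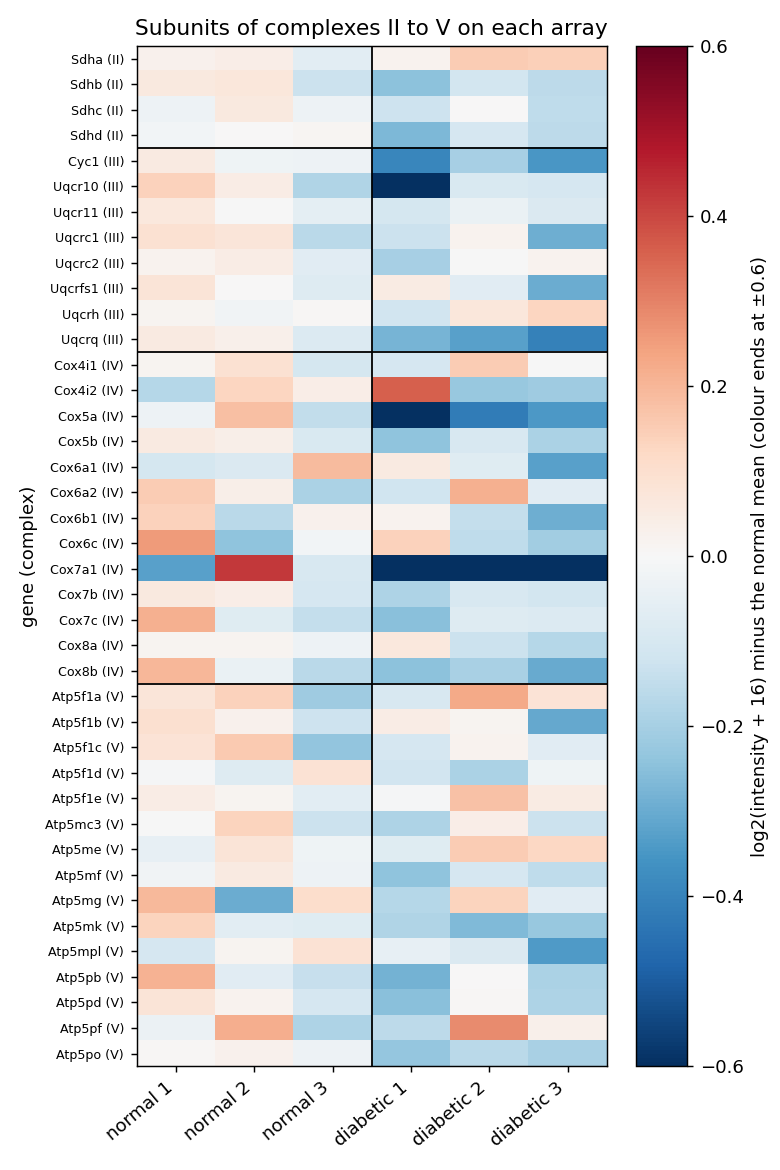
Each of the 40 tested subunits (rows, grouped by complex) on each of the 6 arrays (columns), coloured by log2(intensity + 16) minus the gene's mean over the normal arrays, blue for lower and red for higher. Cox7a1 is the row with the deepest blue on all 3 diabetic arrays, and the diabetic 2 column is paler than diabetic 1 and 3 in complex V.

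The arrays did not contribute equally. Relative to each gene's normal mean, the median over the 15 complex V subunits was -0.16, 0.02 and -0.13 in diabetic 1, 2 and 3, and 0.04, 0.02 and -0.07 in normal 1, 2 and 3. Over the 8 complex III subunits it was -0.16, -0.05 and -0.20 in diabetic arrays and 0.06, 0.02 and -0.07 in normal arrays. For complex IV it was -0.12, -0.13 and -0.21 against 0.05, 0.03 and -0.10, and for complex II -0.18, -0.05 and -0.15 against 0.00, 0.05 and -0.05. Diabetic 2 was thus at or near the level of normal arrays in complexes II, III and V, and normal 3 was the lowest normal array in all 4 complexes.

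Genes that serve the same complexes were read from lists of their own in the same limma fit, where none passed, and at an unadjusted p under 0.05 there were 0 in complex IV assembly, 1 in complex III assembly, 0 in ATP synthase assembly, 1 among regulators and 2 among other mitochondrial genes, where 19.9% of all tested probe sets had such a p. Of 15 tested genes for complex IV assembly and copper delivery, none passed (median log2 -0.02), the smallest p belonging to Coa5 (-0.37, adjusted p = 0.264) and Cox14 (-0.35, adjusted p = 0.267). None of 5 complex III assembly genes passed (median -0.07), with Uqcc2 at -0.38 ± 0.15 (adjusted p = 0.189) and lower in every diabetic array. None of 3 ATP synthase assembly genes passed, with Atpaf2 at 0.29 and Atpaf1 at -0.26. Of 10 tested regulators of mitochondrial biogenesis none passed (median 0.03). Thrb, a thyroid hormone receptor, was at 0.68 ± 0.19 (adjusted p = 0.0900), Esrra, an orphan receptor that drives respiratory genes, at -0.38 (adjusted p = 0.343), and Ppargc1a, their coactivator, at 0.13 (adjusted p = 0.715). Of 23 other mitochondrial genes (matrix, import, outer membrane and carriers) none passed, and 19 were below 0 with a median of -0.12, close to that of the respiratory members. The lowest p there was that of Hspe1, a mitochondrial chaperonin, at -0.44 ± 0.15 (adjusted p = 0.150).

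Other features of the arrays moved with the groups. Of 7 tested fibroblast markers 4 fell (Col1a1, Col1a2, Col3a1 and Lum) and none rose (median log2 -1.24). Dcn, Pdgfra and Tcf21 overlapped between the groups and did not pass (log2 -0.01, -0.24 and -0.29). The summed intensity of the 8 on the array was 32322 to 37168 in normal and 20737 to 22012 in diabetic hearts. Within that sum Col3a1 had a mean of 10058 in normal and 2579 in diabetic hearts. The summed intensity of 6 smooth muscle and pericyte markers was 3665 to 4714 against 2929 to 3524, with none passing. Within that sum Rgs5 had a mean of 2101 in normal and 1414 in diabetic hearts. It was lower in every diabetic array (-0.56, limma adjusted p = 0.114), while Tagln, Myh11, Acta2 and Pdgfrb overlapped. Among 8 cardiomyocyte markers Nppa and Myh7 rose and Myh6 fell, and 6 were below 0 (median log2 -0.15). Ryr2 was lower in every diabetic array without passing (-0.49, adjusted p = 0.155). The summed intensity of the 8 overlapped (187483 to 239449.5 and 196682 to 267893), but it joins the higher Nppa and Myh7 with the lower Myh6. Of 5 endothelial markers Tie1 fell (-0.94, adjusted p = 0.0222). Without passing, Emcn was lower in every diabetic array (-0.30, adjusted p = 0.284) and Pecam1 higher (0.68, adjusted p = 0.147). Kdr (-0.04, adjusted p = 0.932) and Vwf (0.26, adjusted p = 0.647) overlapped. None of 5 macrophage, 2 erythroid or 4 skeletal muscle markers passed. In the last list Ckm was lower in every diabetic array (-0.29, limma adjusted p = 0.323), while Acta1, Mb and Tnni2 overlapped. Ckm and Mb were bright in normal hearts (means 27574 and 36935), so that list does not single out skeletal muscle here. Among 4 atrial markers Nppa, also listed for cardiomyocytes, rose from a mean intensity of 3671 to 25244 and made up most of their sum (3871 to 5176 against 20566 to 30669), while Sln, Myl4 and Myl7 overlapped and did not pass. No marker of any list was at 0 on all arrays. The 3′ to 5′ ratio of the Gapdh control was 1.18 to 1.34 in normal and 1.25 to 1.41 in diabetic hearts, and that of beta-actin 1.25 to 1.84 and 1.23 to 1.61. The part of the marker shifts in the respiratory results was not tested.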

How the data were processed

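The values are linear signal intensities, deposited as a single table of probe sets by arrays. How the authors made it is not given in the sources used here. Its 2% trimmed means were 500.2 on every array, so the deposited intensities were already scaled and were used as they are. The number of arrays limits the precision, and no detection calls were used.

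The 57 control probe sets were left out, and 9519 of 15866 were tested after the filter. Fold changes on the log2(intensity + 16) scale understate dim genes. The model was limma 3.58.1 (R 4.3.3) with no term beside group, moderated by eBayes and read two-sided. It was also run on simulated data with independent errors, which hold no effects shared within an array. The outcome of that run is not given here. Names came from the array's annotation, and all 48 members matched the GRCr8 gene table. The members, lists and naming rule were chosen with earlier results of these data known. The rule gave values on every array for members past the threshold, the isoform pairs, and per complex the subunits with the highest and lowest difference and the highest mean; other members so shown were chosen after their values were seen. The alternatives were other pseudocounts (1 and 64), scalings, filters and variance priors, array weights, a replicate block, a threshold of 0.1 and leaving out each array. Plots used matplotlib 3.10.9 in Python 3.11.15.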

Additional observations from a re-analysis of the deposited data

How the results depend on the processing

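The fall of Cox7a1 passed under both pseudocounts, both scalings, the stricter filter, a filter on linear means, an intensity trend, a robust prior and array weights, and with the replicate number as a block. With that block 1 member changed, Cox7a1 (limma adjusted p = 0.0454), and 183 probe sets in all. Deviations of same-numbered arrays from their group means correlated at 0.066, 0.014 and 0.016, and 4 of 6 arrays correlated best with their own number. With so few arrays these values cannot tell whether same-numbered arrays share more than a number. The count of changed members was 0 with no filter, and 0 to 1 with an array left out. Over all probe sets, 274 changed. The count was 18 with no filter, 437 with the filter at the 60th percentile, 527 with an intensity trend and 674 at a threshold of 0.1, and 100 to 202 with an array left out (138 without normal 2, 100 without normal 3, 100 without diabetic 2 and 135 without diabetic 3). Members below 0 numbered 34 to 41 over the alternatives, the highest after quantile normalization. The counts over the alternatives of members below 0 or lying entirely lower were added after the values were seen, while quantile normalization itself was planned. Quantile normalization raised the members lying entirely lower from 10 to 20, and moved the medians of complex II to -0.22 and of complex III to -0.19. The cause was not tested. With an array left out the medians ran from -0.17 to -0.10 in complex II, -0.18 to -0.08 in complex III, -0.18 to -0.06 in complex IV and -0.15 to -0.05 in complex V. Signs turned for values near 0. After quantile normalization Cox4i1 was -0.02, Sdha -0.02, Uqcrh -0.05 and the change of Cox4i2 minus Cox4i1 0.01. With an array left out, that last change ran from -0.29 to 0.13, that of Cox6a2 minus Cox6a1 from -0.06 (without normal 3) to 0.27, Cox4i1 from -0.05 to 0.07, Cox4i2 from -0.22 to 0.07, Cox6a2 from -0.09 to 0.09, Uqcrh from -0.02 to 0.10 and Atp5f1b from -0.15 to 0.03 (without diabetic 3).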
